A study of Mus musculus with 3 samples.

Results

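Semaphorins and Slits are secreted or membrane-bound guidance cues, and plexins and Robos are their receptors. Levels of 9 such genes were measured in mouse bone marrow by single-cell RNA sequencing: the ligands Sema3a, Sema3f, Sema3g, Slit2 and Slit3 and the receptors Plxnd1, Plxna2, Robo4 and Robo1. They are 9 of the 31053 genes counted, were taken by symbol, and all 9 identifiers matched the GENCODE M21 annotation of build GRCm38. The samples were 3 libraries, 1 per genotype, all from mice of strain C57Bl/6JCrl that had received tamoxifen by gavage. WT was wild type. FLOX carried the genotype Vegfc flox/flox with no Cre named. VC carried Cdh5CreERT2;Vegfc flox/flox, in which the promoter of Cdh5, the VE-cadherin gene of endothelium, drives a Cre that tamoxifen activates on floxed Vegfc, a lymphatic and vascular growth factor gene. Cells were LepR+ stromal cells and endothelial cells from flushed and digested tibial marrow. The number of mice behind each library and the sort gates are, in the sources used here, not given. With 1 library per genotype no test between genotypes was possible.

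Class 3 semaphorins are secreted proteins that mostly signal through a neuropilin that binds the ligand and a plexin that carries the signal into the cell, where it commonly weakens adhesion and collapses the cytoskeleton. Slits are large secreted proteins cut into fragments that bind Robo receptors. Both systems were first studied in growing axons and later in vessels, where Sema3 and Plxnd1 signalling shapes vessel paths and Robo4 is a receptor of endothelium linked to barrier stability.

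Of 15624 barcodes, 12790 had UMIs (unique molecular identifiers, 1 per captured transcript) of no fewer than 500 genes, with a mitochondrial share of 10% or less, and were kept, 4318 in WT, 5734 in FLOX and 2738 in VC. Sinusoidal cells had at least 1 Cdh5 UMI, under 50 Cxcl12 UMIs and at least 2 Stab2 UMIs, and numbered 2992, 3200 and 1643. Arterial cells met the same Cdh5 and Cxcl12 limits, had at most 1 Stab2 UMI and at least 2 of Sox17, Fbln2, Gja4 and Gja5 detected, and numbered 32, 145 and 70. LepR stromal cells had at least 50 Cxcl12 UMIs, at least 1 UMI of Lepr and Adipoq together and at most 2 of Cdh5, and numbered 264, 1107 and 466. Markers that the limits did not use were compared in CPM (UMIs of a gene per 1000000 UMIs of the class). Stab1 stood at 590 to 763 CPM in sinusoidal, 128 to 174 in arterial and 5.17 to 15.4 in stromal cells. Efnb2 stood at 397 to 491 in arterial against 31.1 to 44.2 in sinusoidal cells. Kitl stood at 2259 to 3095 in stromal cells, against 13.0 to 16.8 in sinusoidal and 308 to 814 in arterial cells. Dll4, also on the arterial list, set the WT classes little apart (65.9 CPM in arterial, 58.3 in sinusoidal cells), and Vcam1, on the stromal list, went against it in FLOX and VC, at 2800 and 2699 CPM in sinusoidal cells beside 2243 and 1661 in stromal cells. The arterial class of WT stood apart, with 32 cells and 425026 UMIs, 0 UMIs of Gja5 and Bmx (62.997 and 44.1 CPM in FLOX, and 55.3 and 32.1 in VC), Hey1 at 7.06 CPM against 82.7 and 80.9, and 5 neutrophil markers summing to 289 CPM against 24733 in FLOX and 23998 in VC. Vegfc, the targeted gene, stood in stromal cells at 246, 201 and 145 CPM (WT, FLOX and VC in this order, as below). In sinusoidal cells it stood at 1.56, 0.562 and 0.279. In arterial cells it stood at 4.71, 7.09 and 0, from 2, 9 and 0 UMIs. Whether these 3' counts lie in the floxed part is not stated. The kept barcodes shared with another library numbered 12, 10 and 8. Intervals below are 95%, exact, and cover counting error only.

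The class differences were tested with edgeR's quasi-likelihood test on the 9 sums of UMIs (3 classes in 3 libraries), with the library as a block and Benjamini-Hochberg adjustment over 13194 genes, so that the libraries of different genotype served as the replicates of a class. Between arterial and sinusoidal cells 7 of the 9 genes passed an adjusted p of 0.05, Sema3f, Sema3g and Slit3 being higher in arterial cells and Sema3a, Plxnd1, Robo4 and Robo1 lower. Over all genes 25.2% passed, 10.2% higher and 15.0% lower, or 1340 and 1985 genes, a split that turned to 1780 higher and 1312 lower with class totals as the only scaling. All 9 differed between stromal and sinusoidal cells, Plxna2, Robo1, Slit2 and Slit3 being higher in stromal cells and the other 5 lower, where 60.4% of all genes passed, 30.2% in each direction. Between stromal and arterial cells 8 of 9 passed, 4 in each direction, against 46.2% of all genes, 25.9% higher and 20.2% lower in stromal cells, or 3421 and 2670 genes, and 2815 and 3275 with class totals alone. Of the 5 ligands, Sema3a, Sema3f and Sema3g were thus lower in stromal than in sinusoidal cells, and Slit2 and Slit3 higher.

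**Figure D1:**
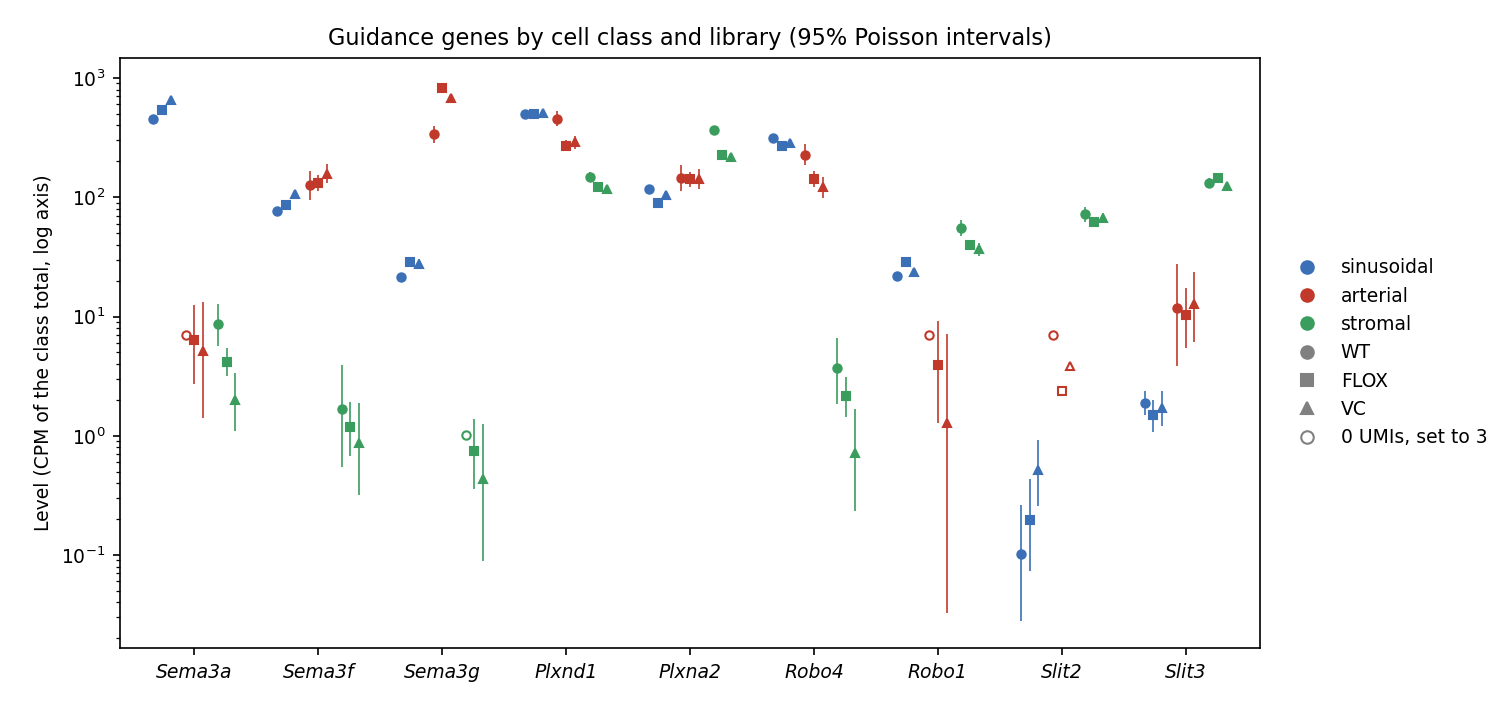
Levels of the 9 genes in sinusoidal (blue), arterial (red) and stromal (green) cells of the WT (circle), FLOX (square) and VC (triangle) libraries, in CPM of the class total on a log axis, with 95% Poisson intervals. Open symbols stand for a count of 0, set to 3 UMIs. Sema3a stands at 451 to 660 CPM in sinusoidal cells and at 0 to 8.72 in the other classes, and Slit2 at 62.5 to 71.8 in stromal cells.

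Sema3a, on chromosome 5 from 13125414 to 13602565 on the plus strand, encodes a secreted semaphorin that repels axons through neuropilin 1 and A-type plexins. In sinusoidal cells it measured 451 CPM for WT, 536 for FLOX and 660.02 for VC, from 17625, 16200 and 14180 UMIs. In arterial cells it was 0 in WT, 6.30 in FLOX and 5.14 in VC, from 0, 8 and 4 UMIs, and in stromal cells it was 8.72, 4.17 and 2.01, from 26, 56 and 14 UMIs. The lowest sinusoidal value was far above every value of the other classes. Arterial cells were lower than sinusoidal cells by at least 63.9-fold in WT, where the count of 0 was set to 3 UMIs, by 85.01-fold in FLOX (43.1 to 197) and by 128-fold in VC (50.2 to 471). The log2 fold was -7.01 ± 0.46 (SE), with an adjusted p of 7.9e-07 in edgeR's test. Stromal cells were lower than sinusoidal cells by 51.7-fold, 128-fold and 328-fold in WT, FLOX and VC, with an edgeR log2 fold of -7.03 ± 0.36 and an adjusted p of 6.1e-09. Arterial and stromal cells, the lower neighbours in the order of levels, were not told apart (log2 fold -0.02 ± 0.77, adjusted p = 0.989 in edgeR's test). Haematopoietic cells (at least 1 Ptprc UMI and 0 of Cdh5 and Stab2), which should lack the transcript, held 1.84, 2.41 and 2.22 CPM, and the stromal value of VC lay below its own. The part of free RNA in the low values was not tested.

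The Sema3a transcript was spread over most sinusoidal cells. At least 1 UMI was seen in 86.2% of sinusoidal cells in WT, 85.4% in FLOX and 90.5% in VC, at median depths of 11106.5, 7781 and 10745 UMIs per cell. With each cell thinned to 2000 UMIs, which left out 18, 29 and 7 shallower cells, the shares were 52.6%, 56.4% and 63.5%, against 0.81%, 0.655% and 1.6% in haematopoietic cells. The median cell held 4, 3 and 6 UMIs and the highest 80, 48 and 84. The top 10% of cells held 34.1% of the WT UMIs. The remaining endothelial cells, those with Cdh5 that met neither endothelial rule, held Sema3a at 37.6, 60.3 and 56.9 CPM, between the sinusoidal and the arterial values in every library.

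Sema3f, on chromosome 9 from 107681500 to 107710475 on the minus strand, encodes a secreted semaphorin that prefers neuropilin 2. Sinusoidal cells held it at 77.1, 86.4 and 107 CPM and arterial cells at 127, 132 and 158. Stromal cells held 1.68, 1.19 and 0.861 CPM, from 5, 16 and 6 UMIs, beside 0.847, 1.15 and 0.989 in haematopoietic cells. The endothelial classes did not overlap, and within each library the arterial level was 1.47 to 1.65 times the sinusoidal one. That difference passed edgeR's test narrowly, with a log2 fold of 0.45 ± 0.13 and an adjusted p of 0.023. The call was lost without the FLOX library (adjusted p = 0.11) or without VC (0.091), with DESeq2 (0.058), with no filter on low counts (0.087), with no library block (0.10) and with endothelium held to under 10 Cxcl12 UMIs (0.12). Stromal cells were lower than sinusoidal cells by 46.0-fold, 72.5-fold and 124-fold in the 3 libraries. The edgeR log2 fold was -6.30 ± 0.19 against sinusoidal cells (adjusted p = 8.8e-11) and -6.76 ± 0.20 against arterial cells (adjusted p = 4.9e-10).

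Sema3g, a secreted semaphorin known in arterial endothelium, lies on chromosome 14 from 31217860 to 31230352 on the plus strand. The bases before its start are shown because Sema3g stood out in the arterial class, while Plxnd1 and Robo4 were high in both endothelial classes and Slit2 in the stromal class. Each is given 5′ to 3′ on the gene's strand, from RefSeq on GRCm38.p6, and stops before the start of the gene in RefSeq and in GENCODE. Capitals mark AGGAAG, an ETS core, on either strand; ETS factors are prominent in endothelium, and 29.55% of the 32544 windows of 250 bases before a start in the same table hold this motif. A match is a description of letters and not a bound site.
Sema3g (chr14:31217623-31217859, plus strand): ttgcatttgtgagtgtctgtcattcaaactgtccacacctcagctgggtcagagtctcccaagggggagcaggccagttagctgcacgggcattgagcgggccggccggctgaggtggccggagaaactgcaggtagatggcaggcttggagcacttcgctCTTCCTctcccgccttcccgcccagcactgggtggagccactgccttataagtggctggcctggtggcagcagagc
Plxnd1 (chr6:115995006-115995255, minus strand): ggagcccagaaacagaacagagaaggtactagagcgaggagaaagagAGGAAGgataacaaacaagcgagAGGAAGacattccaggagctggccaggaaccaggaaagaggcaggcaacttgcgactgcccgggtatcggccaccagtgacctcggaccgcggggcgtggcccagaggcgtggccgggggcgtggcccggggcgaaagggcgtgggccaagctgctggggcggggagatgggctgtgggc
Robo4 (chr9:37401722-37401896, plus strand): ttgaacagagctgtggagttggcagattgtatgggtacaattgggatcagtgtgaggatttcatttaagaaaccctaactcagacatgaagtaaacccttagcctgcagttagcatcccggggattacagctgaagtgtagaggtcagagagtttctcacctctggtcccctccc
Slit2 (chr5:47982905-47983137, plus strand): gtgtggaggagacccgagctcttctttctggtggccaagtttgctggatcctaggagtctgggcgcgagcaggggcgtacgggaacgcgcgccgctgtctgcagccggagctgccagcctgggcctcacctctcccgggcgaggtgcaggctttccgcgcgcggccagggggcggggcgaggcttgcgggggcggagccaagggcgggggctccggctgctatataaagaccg
The window of 250 bases held the motif once for Sema3g, 89 bases before the RefSeq start, and 2 times for Plxnd1, at 203 and 180 bases. In Robo4 the match at 49 bases lies in the unprinted part inside the GENCODE gene, and Slit2 had none. The Slit2 window held TATAAA once, searched on either strand like the rest, 28 bases before the start, as 12.31% of windows do, and GGGCGG, an SP1 motif, 3 times, where 32.96% of windows hold it at least once. CpG counts in the 8 windows that matched were 2 for Robo4 and Sema3a, 8 for Sema3g, 11 for Robo1, 16 for Plxnd1, 18 for Plxna2, 25 for Slit2 and 35 for Slit3, against a median of 6 over all windows. Slit2 and Slit3, the stromal ligands, had the highest counts of the 8. For Sema3a and Robo1 the RefSeq start lies far inside the GENCODE gene, and for Plxna2 it lies 1611 bases inside. For Slit3 232 of the 250 bases of the window lie inside the GENCODE gene.

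Arterial cells had the highest Sema3g in each library. They measured 339 CPM (WT), 832 (FLOX) and 678 (VC), from 144, 1056 and 528 UMIs, against 21.4, 28.8 and 27.8 in sinusoidal cells. The groups did not overlap, and arterial cells were higher by 15.8-fold in WT (13.2 to 18.9), 28.8-fold in FLOX (26.3 to 31.6) and 24.4-fold in VC (21.7 to 27.5). The log2 fold was 4.33 ± 0.18, with an adjusted p of 3.2e-08 in edgeR's test. Stromal cells held 0, 10 and 3 UMIs, or 0, 0.745 and 0.431 CPM, beside 2.12, 0.574 and 0.989 in haematopoietic cells. The order was thus arterial, sinusoidal and stromal, and each step passed edgeR's test, with stromal cells below sinusoidal cells at a log2 fold of -5.77 ± 0.31 (adjusted p = 9.6e-09). Thinned to 2000 UMIs, 40.6% of WT arterial cells (13 of 32), 71.0% in FLOX and 70.0% in VC had a Sema3g UMI, against 3.63%, 3.91% and 4.16% of sinusoidal cells.

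In sinusoidal cells the Sema3g UMIs were held by few cells. A UMI was seen in 11.7%, 11.7% and 16.7% of them, and the top 10% of cells held 93.9%, 93.9% and 81.6% of the UMIs. Sinusoidal cells with at least 3 Sema3g UMIs, a limit set after the values were seen, numbered 86, 91 and 50. In these cells Sema3a was at 84.8, 178 and 225 CPM, against 471, 556 and 685 in the other sinusoidal cells, and Stab2 was at 635, 590 and 619 against 1802, 1446 and 1375. Efnb2, an arterial ligand, was at 310, 224 and 183 CPM against 29.9, 24.5 and 22.5. That split was made on Sema3g itself. In another, made on the genes of the arterial rule, the 75, 60 and 33 sinusoidal cells with at least 2 of the 4 arterial rule genes had Sema3g at 176, 233 and 215 CPM and Sema3a at 68.1, 183 and 216, where those with none had Sema3g at 9.93, 14.01 and 17.7 and Sema3a at 492, 563 and 703. In each library the cells with arterial genes thus had more Sema3g and less Sema3a, given as a description with no test. They were also deeper, with medians of 22918, 17722 and 21430 UMIs against 10261, 7304 and 10031, and 5.33%, 20% and 27.3% of them were in the top 5% of doublet scores against 6.45%, 4.37% and 5.25%. The part of depth and of doublets in this was not tested.

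Slit2, on chromosome 5 from 47983138 to 48307733 on the plus strand, and Slit3, on chromosome 11 from 35121224 to 35708507 on the plus strand, encode secreted ligands of Robo receptors. Slit2 stood in stromal cells at 71.8, 62.5 and 66.8 CPM, from 214, 839 and 465 UMIs. Sinusoidal cells held 4, 6 and 11 UMIs, or 0.102, 0.198 and 0.512 CPM, and arterial cells held 0 in each library, which at 3 UMIs allows up to 7.06, 2.36 and 3.85 CPM. Kept cells that met no class rule held 9.10, 24.7 and 56.5 CPM, and in VC 24.5 without the highest cell. Stromal cells were higher than sinusoidal cells by 702-fold (270 to 2600), 315-fold (144 to 861) and 130-fold (72.2 to 263). Against arterial cells, with the 0 set to 3 UMIs per library, stromal cells were at least 10.2-fold, 26.5-fold and 17.3-fold higher. The stromal difference passed edgeR's test against sinusoidal cells (log2 fold 8.08 ± 0.29, adjusted p = 3.8e-09) and against arterial cells (adjusted p = 4.4e-06). The difference between sinusoidal and arterial cells was not detectable at this depth (adjusted p = 0.569 in edgeR's test). A counted gene, 4930518C09Rik, overlaps Slit2 on the opposite strand but not in its last 1000 bases.

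Slit3 was at 131, 144 and 123 CPM in stromal cells, from 391, 1930 and 858 UMIs, and at 1.89, 1.49 and 1.72 in sinusoidal cells. In arterial cells it was at 11.8, 10.2 and 12.8 CPM, from 5, 13 and 10 UMIs. The 3 classes did not overlap and stood in the order stromal, arterial and sinusoidal. Stromal cells were higher than sinusoidal cells by 69.3-fold, 96.7-fold and 71.5-fold (log2 fold 6.27 ± 0.14, adjusted p = 2.1e-11 in edgeR's test), and higher than arterial cells by 11.2-fold, 14.1-fold and 9.59-fold (log2 fold 3.70 ± 0.19, adjusted p = 1.5e-08). The step from sinusoidal to arterial cells was a log2 fold of 2.57 ± 0.30 with an adjusted p of 5.9e-05 in edgeR's test. Beside that step, 4 smooth muscle markers summed to 7.06, 180 and 234 CPM in arterial cells and to 6.68, 4.63 and 3.86 in sinusoidal cells. In WT, where 3 of the 4 were at 0 in arterial cells, the Slit3 step was 6.22-fold, from 5 UMIs (1.96 to 15.2), beside 6.88-fold in FLOX and 7.46-fold in VC. The part of smooth muscle RNA in the step was not tested.

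Both Slit genes were detected in part of the stromal cells. A UMI of Slit2 was seen in 42.05%, 40.1% and 45.9% of them, and a UMI of Slit3 in 69.7%, 73.9% and 73.2%, at median depths of 10654, 11315 and 13581.5 UMIs. Thinned to 2000 UMIs the shares were 12.98%, 10.5% and 11.4% for Slit2 and 19.5%, 24.0% and 18.6% for Slit3. Haematopoietic cells, at the same thinned depth, held at most 0.4% for either gene.

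**Figure D2:**
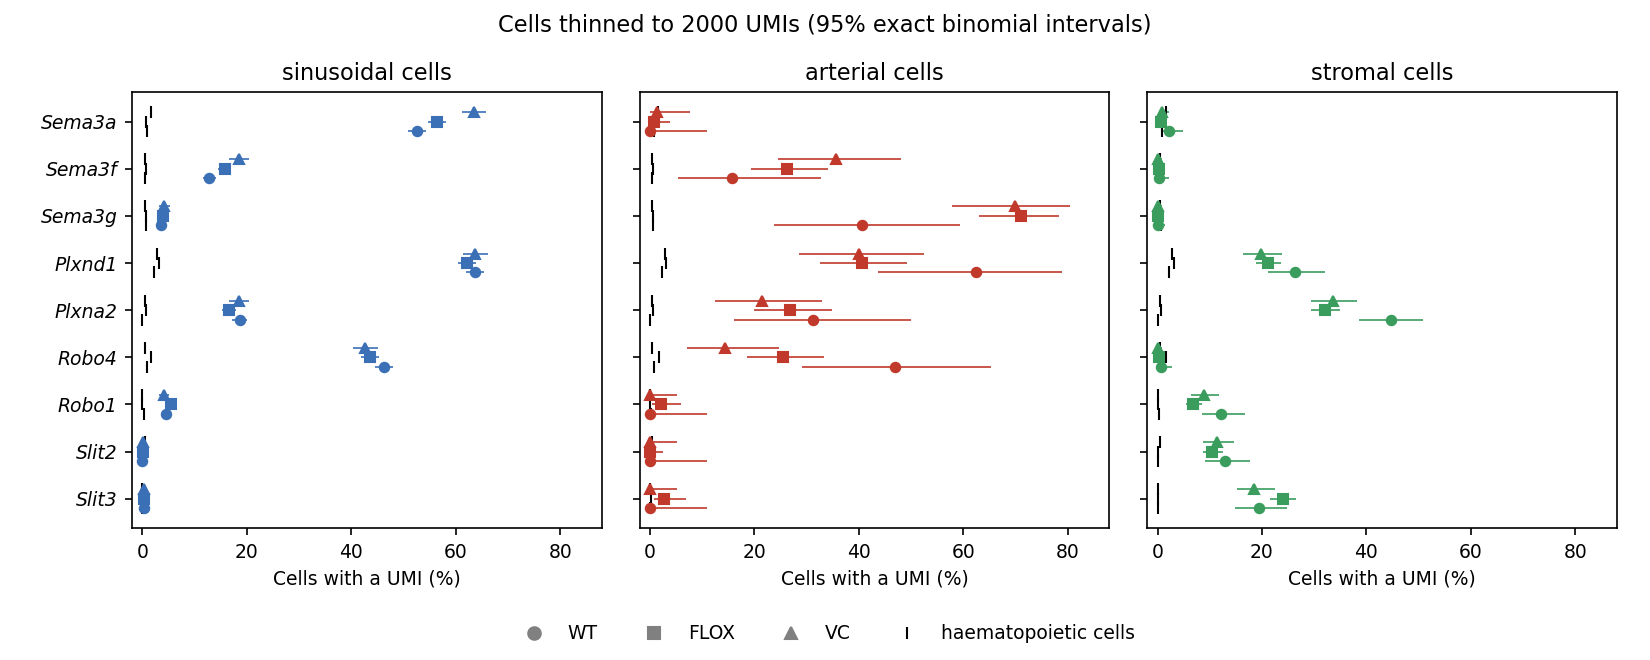
Share of cells with a UMI of each gene after thinning to 2000 UMIs, in percent, by class and library, with 95% exact binomial intervals. Black ticks give the share in haematopoietic cells of the same library. Sema3a is found in 52.6% to 63.5% of sinusoidal cells and at or near the tick in the other classes, and the wide bars are those of the 32 WT arterial cells.

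Plxnd1, on chromosome 6 from 115954811 to 115995005 on the minus strand, encodes the plexin of endothelium that class 3 semaphorins engage in vessel patterning. It was found in all 3 classes. Its level was 501, 498 and 513 CPM in sinusoidal cells, 456, 270.1 and 289 in arterial cells and 148, 121 and 117 in stromal cells. The classes did not overlap. Arterial cells were lower by 1.84-fold in FLOX (1.66 to 2.06) and 1.77-fold in VC (1.55 to 2.03), but only by 1.10-fold in WT (0.953 to 1.27). The log2 fold was -0.79 ± 0.15 with an adjusted p of 0.0026 in edgeR's test, and the call was lost without FLOX (adjusted p = 0.15) and with endothelium held to under 10 Cxcl12 UMIs (0.077). Stromal cells were lower than sinusoidal cells by 3.39-fold, 4.10-fold and 4.38-fold, with a log2 fold of -1.9996 ± 0.15 and an adjusted p of 2.5e-07. Haematopoietic cells held 22.3, 13.8 and 12.9 CPM, well under the stromal level. At least 1 UMI was seen in 97.1%, 94.0% and 96.9% of sinusoidal cells and in 75.4%, 71.1% and 75.8% of stromal cells.

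Plxna2, on chromosome 1 from 194618218 to 194816869 on the plus strand, encodes an A-type plexin that pairs with neuropilins and also binds transmembrane class 6 semaphorins. Stromal cells held 368, 228 and 219 CPM, arterial cells 146, 142 and 143, and sinusoidal cells 118, 90.3 and 105. Stromal cells were above both endothelial classes in every library, by 2.08-fold to 3.11-fold over sinusoidal cells. That difference had a log2 fold of 1.33 ± 0.14 and an adjusted p of 5.3e-06 in edgeR's test, and the one against arterial cells 1.02 ± 0.16 and 0.00022. Arterial and sinusoidal cells did not differ beyond the threshold, at a log2 fold of 0.32 ± 0.16 and an adjusted p of 0.175 in edgeR's test. That call appeared with class totals as the only scaling (adjusted p = 0.039) and without cells with blood RNA (0.045). In haematopoietic cells Plxna2 stood at 0.565, 1.72 and 0.494 CPM.

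Robo4, on chromosome 9 from 37401897 to 37415115 on the plus strand, encodes the Robo receptor of endothelium, which lacks part of the Slit-binding region of its relatives. It was at 313, 269 and 284 CPM in sinusoidal cells, 228, 143 and 122 in arterial cells and 3.69, 2.16 and 0.718 in stromal cells. No class overlapped another. Arterial cells were lower by 1.37-fold in WT, 1.89-fold in FLOX and 2.33-fold in VC, with a log2 fold of -1.05 ± 0.19 and an adjusted p of 0.0017 in edgeR's test, a call lost without FLOX (adjusted p = 0.062). Stromal cells were lower than sinusoidal cells by 84.7-fold, 125-fold and 396-fold, from 11, 29 and 5 UMIs, with a log2 fold of -7.19 ± 0.26 (adjusted p = 3.7e-10). Haematopoietic cells held 1.27, 4.25 and 1.98 CPM, so the stromal level did not stand above them in FLOX and VC.

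Robo1, on chromosome 16 from 72308306 to 73046095 on the plus strand, encodes a Slit receptor. It was at 55.4, 40.1 and 36.7 CPM in stromal cells, 22.1, 28.8 and 23.6 in sinusoidal cells and 0, 3.94 and 1.28 in arterial cells, where 0, 5 and 1 UMIs were counted. The order of classes was the same in each library. Stromal cells were higher than sinusoidal cells by 2.51-fold (2.11 to 2.97), 1.39-fold (1.25 to 1.55) and 1.56-fold (1.33 to 1.81), with a log2 fold of 0.78 ± 0.17 and an adjusted p of 0.0020 in edgeR's test. Arterial cells were lower than sinusoidal cells by at least 3.13-fold in WT, with the 0 set to 3 UMIs, by 7.30-fold in FLOX (3.12 to 22.6) and by 18.4-fold in VC (3.28 to 727), with a log2 fold of -3.54 ± 0.49 and an adjusted p of 0.00023. The 2 Robo receptors thus took different orders, Robo4 being lowest in stromal cells and Robo1 in arterial cells. A Robo1 UMI was seen in 20.8%, 20.7% and 21.7% of sinusoidal cells and in 42.8%, 34.4% and 36.7% of stromal cells.

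**Figure D3:**
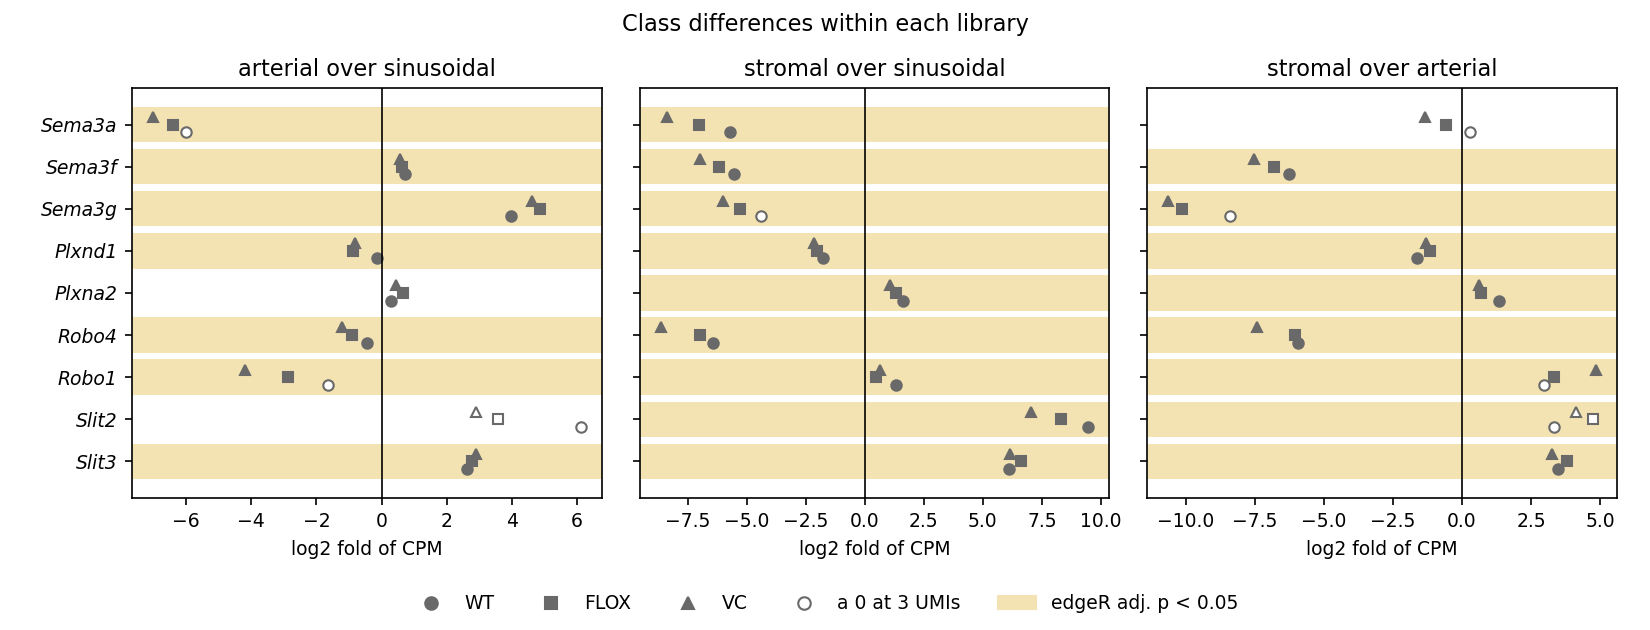
Log2 fold of CPM between classes within the WT (circle), FLOX (square) and VC (triangle) libraries. Open symbols use 3 UMIs in place of a count of 0, and shaded rows passed an adjusted p of 0.05 in edgeR's test. The libraries lie on the same side of 0 in each shaded row.

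The co-receptors and relatives of these genes came from 6 lists of 75 guidance genes, 64 of which were tested. Between arterial and sinusoidal cells 12 were higher and 17 lower, where 10.2% and 15.0% of all genes were, with a median log2 fold of -0.24 beside -0.13 over all genes. Without the 9 genes above, 9 of 55 were higher and 13 lower. The largest in each direction were Sema7a, a membrane-anchored semaphorin (log2 fold 4.46 ± 0.15, adjusted p = 1.2e-08 in edgeR's test), Ntn4, a basement membrane netrin (3.74 ± 0.56, adjusted p = 0.00040, 0 in WT arterial cells), and Unc5b, a netrin receptor of arterial endothelium (3.05 ± 0.21, adjusted p = 1.1e-06). Lower in arterial cells were Flrt3 (-4.00 ± 0.40, adjusted p = 2.0e-05), Dpysl3 (-3.81 ± 0.51, adjusted p = 0.00018) and Arhgap39 (-3.87 ± 0.84, adjusted p = 0.0052) in the same test. Sema7a stood at 82.3, 161 and 146 CPM in arterial cells and 4.30, 5.55 and 5.82 in sinusoidal cells, so that its class order in the endothelium was that of Sema3g.

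Between stromal and sinusoidal cells 27 of the 64 were higher and 24 lower, where 30.2% of all genes were in each direction (median log2 fold 0.12 beside -0.0045 over all genes), and without the 9 genes 23 and 19 of 55. Rgma, a ligand of the receptor neogenin, was at 21.8, 17.1 and 19.4 CPM in stromal cells and at 0.0331 to 0.0931 in sinusoidal cells. Robo2, the nearest relative of Robo1, was at 13.1, 5.81 and 3.88 CPM in stromal cells, and Unc5c at 10.7, 9.69 and 6.17, with 0 in both endothelial classes. On the other side, Flrt3 was at 58.0, 57.4 and 76.8 CPM in sinusoidal cells, Robo3 at 2.61, 1.92 and 2.05, with 0 in stromal cells, and Sema6a, a transmembrane ligand of A-type plexins, at 298, 251 and 271 CPM against 8.05, 2.68 and 2.01 in stromal cells. Between stromal and arterial cells 26 were higher and 23 lower, where 25.9% and 20.2% of all genes were, with a median of 0.09 beside 0.10, and without the 9 genes 22 and 19. The largest were Srgap3, a Robo partner, Unc5c and Robo2 on the stromal side and Sema6a, Plxna4 and Fyn on the arterial side.

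The neuropilins were found in all classes. Nrp1 was at 459, 444.5 and 448 CPM in sinusoidal, 798, 876 and 687 in arterial and 557, 469.7 and 434 in stromal cells. Nrp2 was at 535, 549 and 527, at 525, 233 and 339 and at 320.1, 279 and 264 in the same order. Of the other class 3 semaphorins, Sema3b, Sema3c, Sema3d and Sema3e did not exceed 4.02 CPM in any class. Sema3b, unlike the 3 Sema3 genes above, was higher in stromal cells, at 3.02, 2.91 and 4.02 CPM against 0.256, 0.231 and 0.279 in sinusoidal cells (log2 fold 3.63 ± 0.41, adjusted p = 1.0e-05 in edgeR's test). Slit1 did not exceed 0.0745 CPM, and Dcc had 0 UMIs in the 3 classes. Among the stromal genes, Sema5a was at 192, 175 and 189 CPM.

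**Figure D4:**
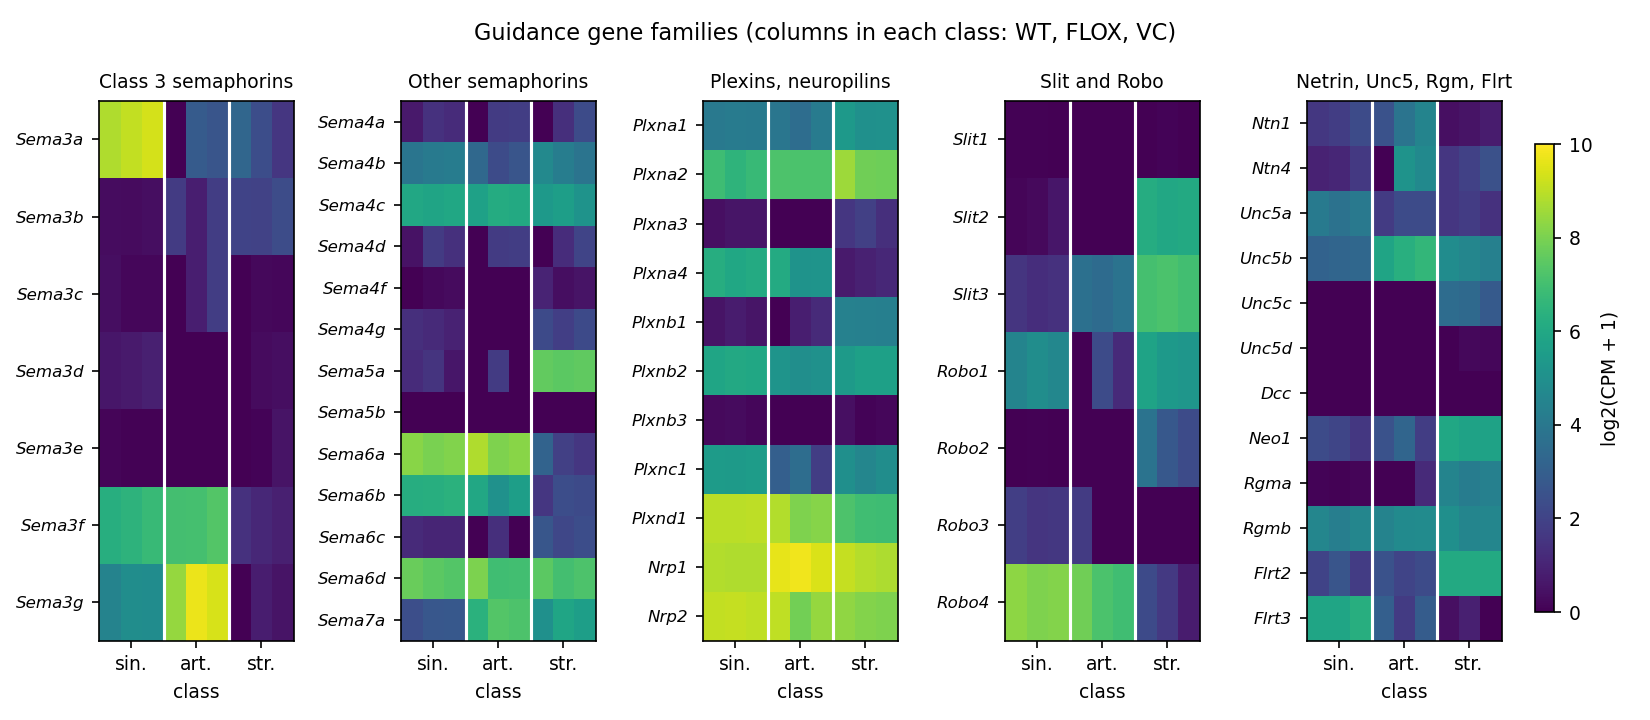
Levels of guidance gene families in sinusoidal (sin.), arterial (art.) and stromal (str.) cells, as log2(CPM + 1), with the WT, FLOX and VC libraries as the 3 columns of each class. Sema3a is bright in the sinusoidal columns and Sema3g in the arterial ones, Slit2, Slit3 and Sema5a are bright in the stromal columns, and Nrp1 and Nrp2 are bright throughout.

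The genes whose log2(CPM + 1) followed each of the 9 most closely over the 9 sums were found among 6739 genes by Pearson's r, given as a description, since the sums share libraries and classes. Sema3a was nearest to Ston2 (0.994), with mean levels of 304, 2.33 and 2.34 CPM in sinusoidal, arterial and stromal cells, followed by Pcdh7 (0.991) and Itpr1 (0.983), and 21 genes had an r of at least 0.95. The r does not give the size of a difference. Itpr1 stood at 210, 106 and 122 CPM in the same classes, and so was not low outside sinusoidal cells as Sema3a was. Sema3f followed Notch1 (0.998), Smco4 and Gimap9, with 487 genes at that limit. Sema3g followed Crip2 (0.994), Anxa3 and Cav1, with 193, though Crip2 stood at 182, 488 and 57.4 CPM, a smaller difference between classes than that of Sema3g. Plxnd1 was nearest to Ptbp3 (0.997) with 250 such genes, Robo4 to Hmcn1 (0.999) with 440, and Robo1 to Elmod2 (0.985) with 21. Plxna2 had 11 such genes, led by Etv1 (0.989), the fewest of the 9. Slit2 followed Ndnf and Rspo3 (both over 0.999) and Slit3 followed Bmp1 (0.998).

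Between genotypes a gene was counted where VC lay at least 1.5-fold above or below both WT and FLOX, with at least 50 UMIs over the 3 libraries. In sinusoidal cells 0 of the 8 genes with that many UMIs were past this fold, against 5.45% of 13237 genes, 1.90% higher and 3.55% lower. In arterial cells it was 0 of 5 against 6.02%, 2.89% higher and 3.13% lower. In stromal cells it was 1 of 6, Sema3a on the lower side, against 5.32%, 3.15% higher and 2.17% lower. No test was run, since each side is 1 library.

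Sema3a and Sema3f had their highest sinusoidal level in VC. For Sema3a the ratio of VC was 1.46 to WT (1.43 to 1.497) and 1.23 to FLOX (1.21 to 1.26), and FLOX stood 1.19 above WT. For Sema3f the ratios were 1.39 (1.32 to 1.47) and 1.24 (1.17 to 1.31), with 1.12 between the controls. These intervals lie above 1, and for Sema3a the step between the controls was nearly as large as that from FLOX to VC. The spread between mice is not measured. On median-of-ratios scaling every VC to WT value in sinusoidal cells moves up by 0.15 on the log2 scale. VC sinusoidal cells held Cxcl9, an interferon-induced chemokine, at 10 UMIs or more in 914 of 1643 cells, against 151 in WT and 78 in FLOX. Among cells with 0 Cxcl9 UMIs Sema3a was at 441, 517 and 605 CPM, and among those with at least 10 it was at 447, 630 and 675, so the order of the libraries was the same in both. For Sema3f it was 81.0, 87.1 and 90.6 in the first and 88.3, 78.5 and 114 in the second. The cells of the second group were deeper, with medians of 17299, 11447 and 11865.5 UMIs against 9608.5, 7067 and 9048. The part of depth and of Cxcl9 in these levels was not tested. In sinusoidal cells the ratio of VC to WT and to FLOX was 1.02 and 1.03 for Plxnd1 and 0.890 and 1.17 for Plxna2. It was 0.909 and 1.06 for Robo4, 1.07 and 0.821 for Robo1 and 1.30 and 0.964 for the ligand Sema3g. Against WT these receptors moved less than Sema3a and Sema3f. Against FLOX, Robo1 moved about as far as Sema3a, downwards. For Plxna2, Robo4, Robo1 and Sema3g VC lay between the controls.

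In stromal cells Sema3a was lower in VC, at 0.230 of WT (0.111 to 0.458) and 0.482 of FLOX (0.248 to 0.877), from 26, 56 and 14 UMIs. Of the 26 WT UMIs 12 were in 1 cell, and without it WT stood at 4.72 CPM. In these cells 5 pan-endothelial markers summed to 35.6, 26.4 and 12.8 CPM, none of them at 0. Kdr (17.8, 9.69 and 3.16 CPM) and Pecam1 (9.06, 5.59 and 3.73) stood in that order, as did Cdh5 (9.06, 4.92 and 3.59), while Emcn (5.37, 6.93 and 3.59), Erg (0.671, 1.42 and 0.718) and Tie1 (2.68, 2.76 and 1.58) were highest in FLOX. In stromal cells with 0 Cdh5 UMIs the log2 ratio of VC to WT was -1.08 in place of -2.12. The part of RNA from endothelium in this value was not tested. Slit2 and Slit3, the stromal ligands, had ratios of VC to WT and to FLOX of 0.930 and 1.07, and of 0.939 and 0.857. Plxna2 was at 0.596 of WT (0.551 to 0.644) and 0.961 of FLOX, and FLOX itself was at 0.620 of WT, so here WT stood apart from both floxed libraries. Robo1 followed, at 0.664 of WT and 0.917 of FLOX. Some blood cell genes were also lower in WT stromal cells, where 5 neutrophil markers summed to 313, 2905 and 8196 CPM. Ighm, an immunoglobulin gene, stood at 53.0, 657 and 378, and Jchain, a plasma cell gene, at 4.36, 248 and 156. Others were not: Cd79a, Cd79b and Vpreb3 of the B lineage list were highest in WT. Ebf1 of that list and Sdc1 of the plasma cell list were also highest in WT, but cannot be read as blood RNA alone. Ebf1 stood at 955, 640 and 698 CPM in stromal cells, against 40.4, 27.6 and 22.2 in sinusoidal cells. Sdc1 stood at 149, 123 and 119 CPM, against 2.94, 7.83 and 5.12 in sinusoidal cells. Mzb1 was highest in FLOX. With Ighm and Ebf1, the 5 B lineage markers summed to 1062, 1311 and 1089 CPM. Ebf1 alone was 955, 640 and 698 of these, so the sum does not measure blood RNA alone. The 4 erythroid markers summed to 1134, 48.6 and 1114, lowest in FLOX. Leaving out cells with blood cell RNA removed 18, 64 and 38 stromal cells. The limit was a Ptprc UMI or over 5 of Hbb-bs, S100a8 or Jchain, and cells below it stayed. The log2 ratio of VC to WT was then -0.74 in place of -0.75 for Plxna2. For Robo1 it was -0.56 in place of -0.59. The part of blood RNA in these ratios was not tested, since RNA in the cells that stayed was not removed.

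In arterial cells the WT library also stood apart. Sema3g was 2.00 times as high in VC as in WT (1.66 to 2.42) and 2.45 times as high in FLOX (2.06 to 2.94), while VC was at 0.816 of FLOX (0.734 to 0.907). Robo4 in VC was at 0.535 of WT (0.399 to 0.717) and 0.856 of FLOX, and Plxnd1 at 0.633 of WT and 1.07 of FLOX. These ratios rest on 32 WT cells. The arterial marker Efnb2 did not set WT apart, at 456, 491 and 397 CPM. Kdr, the VEGFR2 gene, was higher in WT, at 2270.45 CPM (WT), 991 (FLOX) and 909.7 (VC). Gja5, Bmx, Hey1, Dll4 and the sum of neutrophil markers were lower in WT than in FLOX and VC. The part of what these markers measure in the differences was not tested. Over the 75 guidance genes, those past 1.5-fold against both controls were 4 of 59 with at least 50 UMIs in sinusoidal cells (Ntn4 higher, Neo1, Sema5a and Sh3bp1 lower), 0 of 28 in arterial cells and 5 of 53 in stromal cells (Ntn4 higher, Sema3a, Unc5c, Srgap1 and Arhgap39 lower), where 5.45%, 6.02% and 5.32% of all genes were, so that the sinusoidal count was near that of all genes.

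**Figure D5:**
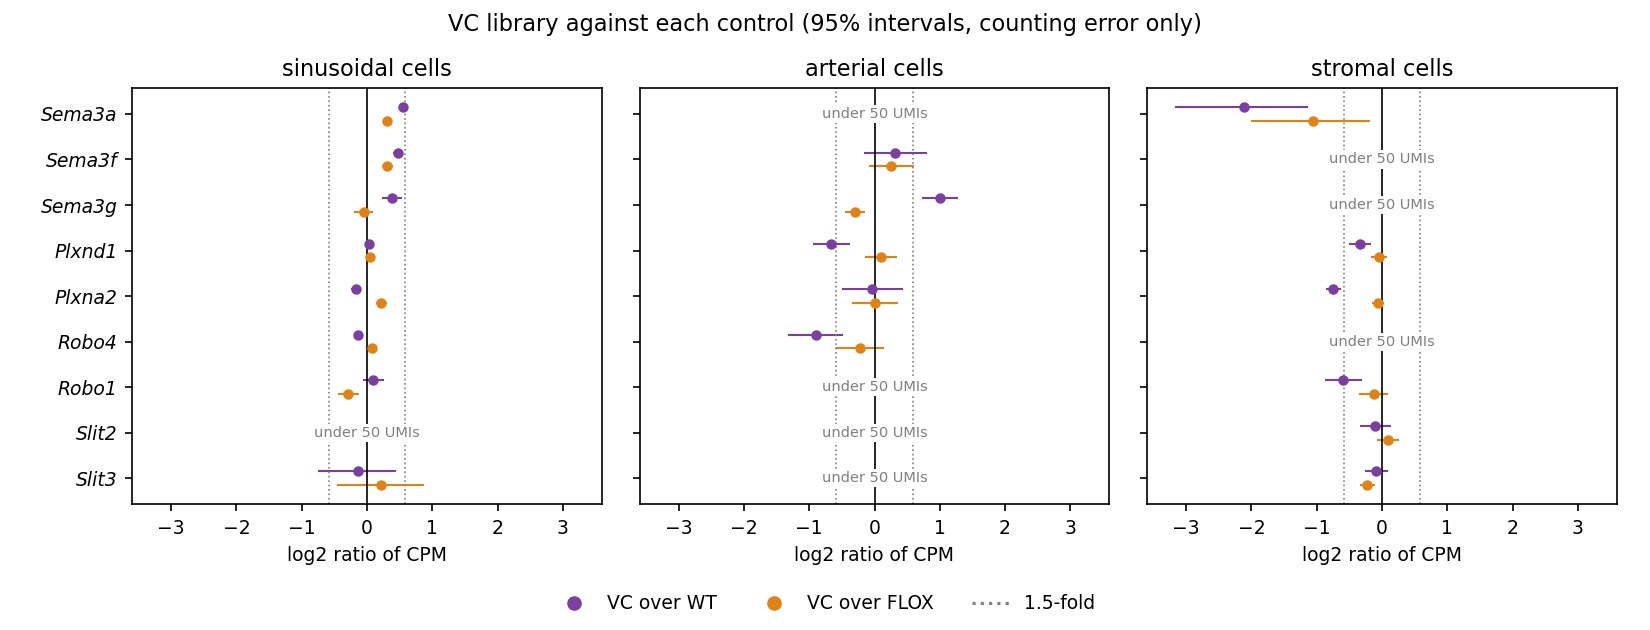
Log2 ratio of CPM of the VC library to WT (purple) and to FLOX (orange) in each class, with 95% intervals for counting error and dotted lines at 1.5-fold. Genes under 50 UMIs are not plotted. Stromal Sema3a alone is past the line on the same side for both controls, and in arterial cells the Sema3g ratio to WT lies on the other side of 0 from the ratio to FLOX.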

How the data were processed

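Single-cell libraries were made with the 10x 3' kit v3.1, per the labels. The authors deposited raw UMI counts per gene and barcode, whole numbers that were not normalised. Cell Ranger 2.1.1, Seurat 3.1 and mm10 are named in the submitters' processing notes; the headers of the matrices record software 3.1.0. Genes, barcodes and identifiers come from the deposited feature and barcode lists, which hold no measurement.

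Totals of 56853574, 61758462 and 37361779 UMIs in WT, FLOX and VC set the counting precision. Counts were summed per class and library, kept by identifier, and given as CPM. Class differences used edgeR 4.0.16 (quasi-likelihood, TMM scaling, its filter on low counts, library block) in R 4.3.3; 13194 genes were tested. The block joins sums from the same library. The script was tested on simulated data. Genotype ratios, Poisson and Clopper-Pearson intervals (95%) and thinning used numpy 2.4.6 and scipy 1.17.1; a count of 0 stands at 3 UMIs. Doublets were not removed; the top 5% of Scrublet scores (scanpy 1.11.5) were left out as an alternative. Other alternatives were stricter cell, Stab2, Cxcl12 and Cdh5 limits, leaving out cells with blood RNA, other scalings, no filter, DESeq2 1.42.0, no block and each library left out. TMM sets the median log2 fold of arterial against sinusoidal cells at -0.13, where class totals give 0.04. The 9 genes and all lists were chosen with earlier results of these data known. From the lists, the 3 genes with the largest change in each direction among those past the threshold were named, and the 3 genes most like each of the 9. Sums of the same genotype are 1 library, so p-values measure the spread between these libraries only.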

Additional observations from a re-analysis of the deposited data

Results flagged for a closer look

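Sema3a differed between VC and the controls in opposite directions in 2 classes. In sinusoidal cells the ratio of VC was 1.46 to WT and 1.23 to FLOX. In stromal cells it was 0.230 to WT and 0.482 to FLOX. Each value compares 1 library with 1 library, so the difference between the classes was not tested. The stromal values rest on 26, 56 and 14 UMIs, and 12 of the 26 in WT were in 1 cell, without which WT stood at 4.72 CPM in place of 8.72. The stromal level of VC, 2.01 CPM, lay below the 2.22 CPM of its haematopoietic cells.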

How the results depend on the processing

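Between arterial and sinusoidal cells 3325 genes were called, against 1719 with endothelium held to under 10 Cxcl12 UMIs, and leaving out 1 library gave 1458 (without FLOX) to 3546 (without WT). Of the 9 genes 7 were called, and 4 to 7 with a library left out, the 4 being without FLOX. Between stromal and arterial cells 6091 genes were called, and 4039 to 5979 with a library left out. The split of calls in arterial against sinusoidal cells was 1340 higher and 1985 lower with TMM, 1780 and 1312 with class totals and 1607 and 1521 with median-of-ratios scaling. Between stromal and arterial cells it was 3421 and 2670 with TMM and 2815 and 3275 with class totals. With no replicate block, arterial against sinusoidal calls were 2804 and members called 6, Sema3f being lost; no other call on the 9 genes was changed by leaving out the block. Sema3a in stromal against arterial cells, not called in any setting, turned from -0.02 to 0.022 with no filter, 0.16 with DESeq2, 0.053 with no replicate block, 0.56 without FLOX and 0.40 without VC, and was -0.64 without WT. With at least 20 UMIs in place of 50, the genes past 1.5-fold in VC were 1 in sinusoidal cells (Slit2, from 21 UMIs) and 2 in stromal cells (Sema3a and Robo4), in place of 0 and 1. The calls on all 9 genes between stromal and sinusoidal cells held in each alternative run. The cause of these changes was not tested. Depth limits the arterial class most, where 3 UMIs are 7.06 CPM in WT.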
